A study of Mus musculus with 2 samples.

Results

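The brush border hydrolases are the digestive enzymes anchored in the apical membrane of absorptive enterocytes, the nutrient-absorbing cells of the small intestine. The 9 genes taken here were Sis, Lct, Mgam, Treh, Alpi, Anpep, Dpp4, Mep1a and Mep1b. They were found as the rows of the authors' gene table whose symbol equals one of these names. All 9 were present among 17219 genes, and all 9 had a fold change both in the organoid comparison, where 15845 genes had one, and in the Epi comparison, where 16336 had one. The series asked how deleting FABP4, which carries fatty acids inside fat cells and macrophages, alters the intestinal epithelium.

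Both organoid libraries came from mouse intestinal crypts embedded in Matrigel and kept in IntestiCult medium until day 6. The design text names the mutant mice FABP4fl/flpvillinCreT (FABP4KO) and the controls FABP4fl/fl (WT), so both groups share the floxed Fabp4 alleles. As background, the villin promoter directs Cre to the intestinal epithelium, and Fabp4 is meant to stay intact in other cells. Recombination of Fabp4 was not measured in the values used here. Titles and design text speak of a knockout, while the genotype label of the same sample reads FABP4 knockdown. Here the genotypes are called WT and F4KO, as in the table headers. The headers also name a pair of Epi libraries of the same genotypes, which no label used here describes. The name Epi is therefore kept as it stands. Mouse age, strain, sex and number are not given in the labels.

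Each genotype had 1 library per comparison, so no difference below has a replicate check. The deposited p-values and false discovery rates (FDR) compare 2 libraries and not genotypes. The deposited tables gave no level or count for a library. Reads and levels were recovered from the deposited p-values and fold changes, and intervals on them cover counting error alone. A level here is a read number divided by transcript length and library total, in the manner of FPKM, recovered to hundredths. Implied totals were about 16300000 reads in WT organoids, 16200000 in F4KO organoids, 18300000 in WT Epi and 14800000 in F4KO Epi.

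The targeted gene could not check the genotypes. Fabp4 (gene ID 11770) had 1 read in WT organoids and 0 in F4KO organoids, and 1 read in WT Epi and 4 in F4KO Epi. Y-linked genes separated the organoid libraries. From WT to F4KO organoids, Eif2s3y counted 1 and 879 reads, Kdm5d 0 and 249, Ddx3y 1 and 230, and Uty 30 and 208. In organoids, genotype and the sex of the source mice therefore cannot be told apart. Both Epi libraries held such reads, 374 and 448 for Ddx3y.

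Sucrase-isomaltase, maltase-glucoamylase, lactase and trehalase split the sugars of a meal at the cell surface. Intestinal alkaline phosphatase removes phosphate from lipids and bacterial products. Aminopeptidase N, dipeptidyl peptidase 4 and the meprins cut peptides. As background, these genes are switched on as cells leave the crypt for the villus, under CDX, HNF4 and GATA factors among others, and lactase is abundant in suckling mice and declines after weaning.

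The bases before the transcription start are shown for the 3 genes that fell in Epi, Lct, Treh and Alpi, and for Sis and Mgam, the paired disaccharidases whose Epi fold changes lay on opposite sides of 0. The sequences are from RefSeq on GRCm38.p6, read 5′ to 3′ along the gene, 250 bases each. They span chr1:128328319-128328568 (minus strand) for Lct, chr9:44672983-44673232 (plus strand) for Treh, chr1:87101607-87101856 (minus strand) for Alpi, chr3:72967864-72968113 (minus strand) for Sis and chr6:40628581-40628830 (plus strand) for Mgam. Capitals mark matches to 3 motifs, searched on both strands, namely the letters TTTAT for CDX factors, the letters AGATAA for GATA factors and the letters CAAAGTCCA for HNF4.
Lct: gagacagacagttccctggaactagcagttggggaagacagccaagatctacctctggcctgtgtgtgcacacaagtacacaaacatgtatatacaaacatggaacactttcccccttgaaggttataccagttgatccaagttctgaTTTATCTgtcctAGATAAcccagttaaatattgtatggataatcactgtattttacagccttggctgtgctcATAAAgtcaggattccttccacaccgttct
Treh: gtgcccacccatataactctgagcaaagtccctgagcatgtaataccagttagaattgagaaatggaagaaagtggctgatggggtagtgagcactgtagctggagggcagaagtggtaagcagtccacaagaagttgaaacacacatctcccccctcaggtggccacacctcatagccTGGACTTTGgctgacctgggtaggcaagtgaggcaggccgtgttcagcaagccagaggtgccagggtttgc
Alpi: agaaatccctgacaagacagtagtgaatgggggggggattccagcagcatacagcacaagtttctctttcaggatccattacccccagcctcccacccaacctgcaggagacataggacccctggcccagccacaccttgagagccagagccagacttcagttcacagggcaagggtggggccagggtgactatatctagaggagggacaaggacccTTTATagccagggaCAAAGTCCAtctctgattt
Sis: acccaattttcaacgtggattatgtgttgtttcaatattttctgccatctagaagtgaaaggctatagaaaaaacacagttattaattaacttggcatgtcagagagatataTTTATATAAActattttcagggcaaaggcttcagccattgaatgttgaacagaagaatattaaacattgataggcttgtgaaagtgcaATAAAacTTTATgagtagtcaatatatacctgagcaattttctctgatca
Mgam: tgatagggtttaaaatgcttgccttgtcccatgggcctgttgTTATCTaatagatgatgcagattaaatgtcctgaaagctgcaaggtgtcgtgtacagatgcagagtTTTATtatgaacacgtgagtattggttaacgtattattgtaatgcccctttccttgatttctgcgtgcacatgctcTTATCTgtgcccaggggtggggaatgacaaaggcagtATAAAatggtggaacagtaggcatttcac

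Each motif was searched in windows of 300 bases, from 250 before to 50 after the start, for 8 of the 9 genes and for all 32851 promoters of the table. CDX letters were in 6 of the 8 members' windows and in 40.01% of all windows. GATA letters were in 3 of 8, against 11.2% of all. HNF4 letters were in 2 of 8, against 0.475% of all windows. These were Treh, with the match starting at -71, and Alpi, with it at -19. Both fell in Epi, and so did Lct, which had no HNF4 match. A link between the motif and the fold changes was not tested. Lct had a CDX match at -102 that overlaps a GATA match at -101, and a further GATA match at -90. Sis held 4 CDX matches. Mgam held GATA matches at -208 and -66. A match of letters is a description and not a measured binding site.

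In organoids Mep1b alone of the hydrolase genes differed by at least 1.5-fold between the libraries, and it fell to 0.53 of WT. A gene was counted as risen or fallen when the authors' deposited fold reached 1.5 and the FDR beside it did not exceed 0.001. By this rule 1 of the 9 genes fell in organoids and 0 rose. Among all 12514 genes with at least 20 reads over both organoid libraries, 1.18% fell and 0.328% rose. Over all genes with an organoid fold change 0.94% fell. Over the 680 genes of a WT organoid level of at least 100, 0.882% fell and 0.147% rose. The median log2 fold change of the 9 was -0.15, beside -0.01 for all genes, whose quartiles were -0.18 and 0.12. In Epi, 3 of the 9 fell, Alpi, Lct and Treh, to between 0.59 and 0.66 of WT, and 0 rose. With the main transcript in place of the gene the count was 2, without Treh. Among 12640 genes tested in Epi, 3.22% fell and 25.5% rose, and over all genes with an Epi fold change 2.51% fell. The median of the 9 was -0.32 in Epi, while the median of all genes was 0.34, with quartiles of 0.00 and 0.80.

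Over all genes tested, the Epi comparison was thus shifted upward, with 73.8% of them above 0. Of the 9 hydrolase genes 8 lay below 0, with Mgam above. After subtraction of each comparison's median, the median of the 9 was -0.14 in organoids and -0.66 in Epi. All 9 were then below 0 in Epi, Mgam at -0.072 included, and 5 passed the rule as lower, with Sis at -0.83 and Dpp4 at -0.66 beside Lct, Treh and Alpi. The background for that count was 8.3% of genes lower and 15.6% higher. In organoids the subtraction left 1 of the 9 past the rule, Mep1b, beside 1.12% of genes lower and 0.352% higher. The upward shift was not seen among abundant genes. For the 659 genes with a WT Epi level of at least 100, taken as the smallest level their fold change allows and so selected on the WT library, the median was -0.06, and 11.5% fell and 12.1% rose. This background was chosen after the data were seen. All 9 hydrolase genes were in that range in WT Epi. The count of 5 past the rule, and all 9 below 0, therefore rest on the median of all genes. Subtracting the median of the abundant genes, -0.06, would raise each of the 9 values and not lower it. Lct at -0.63 and Treh at -0.59 fell past the limit of 0.58 by less than that, so both would miss the rule. Alpi at -0.77 would still pass it. The share of all genes past the rule was not counted that way.

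**Figure D1:**
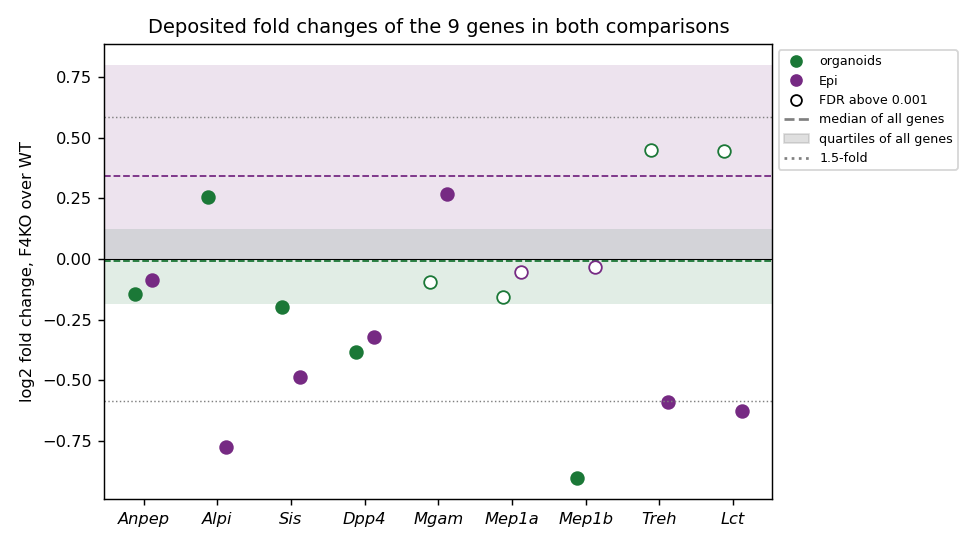
Deposited log2 fold change of F4KO over WT (vertical axis) for each of the 9 genes in organoids (green) and Epi (purple). Open circles have an FDR above 0.001, dashed lines and bands are the median and quartiles of all genes, and dotted lines mark 1.5-fold. Mep1b alone lies past the lower dotted line in organoids, and Alpi, Lct and Treh lie past it in Epi.

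Without the fold limit, 4 of the 9 had an FDR of 0.001 or less and were lower in organoids (Sis, Anpep, Dpp4 and Mep1b), and 1 was higher (Alpi). The shares over all genes were 5.95% lower and 3.89% higher. In Epi 6 were lower and 1, Mgam, was higher at that FDR, beside 10.2% and 39.3% of all genes. In deep libraries small differences pass this limit. Fewer enterocytes and less RNA per enterocyte cannot be told apart in these bulk samples.

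Sucrase-isomaltase, encoded by Sis (gene ID 69983, chr3:72888557-72967863), splits sucrose and the branch points of starch. Its level was 38.9 in WT organoids (95% interval 37.6 to 40.1, from 3830 reads) and 33.8 in F4KO organoids (32.7 to 35.01, 3310 reads). The ratio of reads, scaled by library totals, was 0.871 (0.831 to 0.913). These intervals did not overlap, and the authors' deposited table put the log2 fold change at -0.20, with an FDR of 1.74e-07. In Epi its level was at least 357.2 in WT and at least 255.2 in F4KO, both bounds sharing 1 unknown whole factor. The authors' deposited table put the log2 fold change at -0.48, with an FDR of 0, short of the 1.5-fold limit. Sis was thus below WT in both comparisons.

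Lactase, from Lct (gene ID 226413, chr1:128284756-128328318), splits milk sugar. It was nearly silent in organoids, with a level of 0.22 in WT (0.139 to 0.330, 23 reads) and 0.30 in F4KO (0.202 to 0.428, 30 reads). These intervals overlapped, and the authors' deposited table gave 0.45 with an FDR of 0.595, so that no difference was detectable at this depth. In Epi it was an abundant transcript, with a level of at least 285.7 in WT and at least 185.1 in F4KO. The authors' deposited table gave -0.63 there, with an FDR of 0. Lct had the lowest organoid level of the 9.

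Trehalase, from Treh (gene ID 58866, chr9:44673233-44686305), splits trehalose, the sugar of fungi and insects. In organoids its level was 2.96 in WT (2.40 to 3.61, 97 reads) and 4.04 in F4KO (3.38 to 4.79, 132 reads). The level intervals overlapped, and the read ratio was 1.37 (1.05 to 1.80). The authors' deposited table gave 0.45 with an FDR of 0.0856. In Epi its level was 315 in WT (309 to 321, 11682 reads) and 209 in F4KO (204 to 214, 6328 reads). The Epi read ratio of 0.666 (0.646 to 0.687) ran opposite to that in organoids. The authors' deposited table gave -0.59 with an FDR of 2.78e-152, which passes the fold limit of 0.58 on the log2 scale narrowly. By its main transcript alone, the authors' deposited table gave -0.48, short of the limit.

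Maltase-glucoamylase, from Mgam (gene ID 232714, chr6:40628831-40769123), releases glucose from the ends of starch fragments and is the partner of sucrase-isomaltase in starch digestion. In organoids its level was 24.3 in WT (23.6 to 25.03, 4344 reads) and 22.7 in F4KO (22.0 to 23.5, 3975 reads). The authors' deposited table gave -0.10 with an FDR of 0.00256, above the limit. In Epi its level was 221 in WT and 266 in F4KO, and the reads behind these levels were not resolved. The authors' deposited table gave 0.27 with an FDR of 7.15e-27. Mgam was the only one of the 9 above 0 in Epi before the median was subtracted, and its value lay below the median of all genes.

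Intestinal alkaline phosphatase is encoded by Alpi (gene ID 76768, chr1:87098002-87101606), and it detoxifies bacterial lipopolysaccharide. Its level was 41.5 in WT organoids (39.4 to 43.5, 1583 reads) and 49.6 in F4KO organoids (47.3 to 51.9, 1878 reads). The read ratio was 1.196 (1.12 to 1.28), and the authors' deposited table gave 0.26 with an FDR of 3.63e-06, under the fold limit. In Epi its level was at least 918.86 in WT and at least 537.59 in F4KO. The authors' deposited table gave -0.77 with an FDR of 0, the lowest Epi fold change among the 9. Alpi was thus above WT in organoids and below it in Epi.

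Akp3, a closely related alkaline phosphatase gene and one of the list of other brush border enzymes, was looked at after its values had been seen, because reads of near-identical copies may be shared between them. Its reads numbered 1143 in WT organoids and 1433 in F4KO organoids, at levels of 41.1 and 51.9, close to those of Alpi. In Epi they numbered 37 and 30. The authors' deposited table gave it 0.34 with an FDR of 9.63e-08 in organoids and -0.02 with an FDR of 0.996 in Epi. No source used here says how the authors assigned shared reads, so the split between these genes is uncertain.

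Aminopeptidase N, from Anpep (gene ID 16790, chr7:79821803-79848210), trims amino acids from the front of peptides and was the most abundant of the 9 in both organoid libraries. In organoids its level was 126 in WT (123 to 129, 7897 reads) and 114 in F4KO (111 to 117, 7082 reads). The read ratio was 0.904 (0.875 to 0.934), and the authors' deposited table gave -0.15 with an FDR of 2.28e-08. In Epi its level was 4783 in WT and 4505 in F4KO. The authors' deposited table gave -0.09 with an FDR of 9.94e-114 there. Its fold change was small in both comparisons although the FDR lay far below the limit.

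Dipeptidyl peptidase 4, from Dpp4 (gene ID 13482, chr2:62330073-62412315), removes dipeptides behind proline and also inactivates incretin hormones. In organoids its level was 38.1 in WT (36.8 to 39.5, 3206 reads) and 29.2 in F4KO (28.0 to 30.4, 2415 reads). In Epi it was 315 in WT (311 to 318, 29383 reads) and 252 in F4KO (248 to 256, 19163 reads). Dpp4 was lower in F4KO in both comparisons, with read ratios of 0.759 (0.720 to 0.801) in organoids and 0.802 (0.788 to 0.817) in Epi. After subtraction of each comparison's median its log2 fold change was -0.38 in organoids and -0.66 in Epi, and the difference was not tested. The authors' deposited table gave -0.38 with an FDR of 1.15e-22 in organoids and -0.32 with an FDR of 3.16e-124 in Epi. Neither deposited value reached 1.5-fold.

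The meprins are zinc metalloproteases built from alpha and beta subunits, encoded by Mep1a (gene ID 17287, chr17:43474324-43504143) and Mep1b (gene ID 17288). Mep1b fell in organoids, from a level of 6.21 in WT (5.44 to 7.06, 232 reads) to 3.32 in F4KO (2.76 to 3.96, 123 reads). Its read ratio was 0.534 (0.426 to 0.668), and the authors' deposited table gave -0.90 with an FDR of 2.60e-07. In Epi the Mep1b level was 947 in WT (938 to 957, 39665 reads) and 925 in F4KO (915 to 935, 31477 reads). The authors' deposited table gave -0.03 with an FDR of 0.00351, a ratio close to 1. Mep1b was thus among the lowest of the 9 in organoids and the most abundant after Anpep in Epi wherever levels were exact.

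The alpha subunit did not show the organoid difference of the beta subunit. Mep1a had a level of 10.5 in WT organoids (9.60 to 11.5, 504 reads) and 9.41 in F4KO organoids (8.56 to 10.3, 449 reads). The intervals overlapped, and the authors' deposited table gave -0.16 with an FDR of 0.289. In Epi its level was 211 in WT (207 to 215, 11360 reads) and 203 in F4KO (199 to 208, 8892 reads). The authors' deposited table gave -0.05 with an FDR of 0.0160. Whether the subunits differ in their response was not tested.

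**Figure D2:**
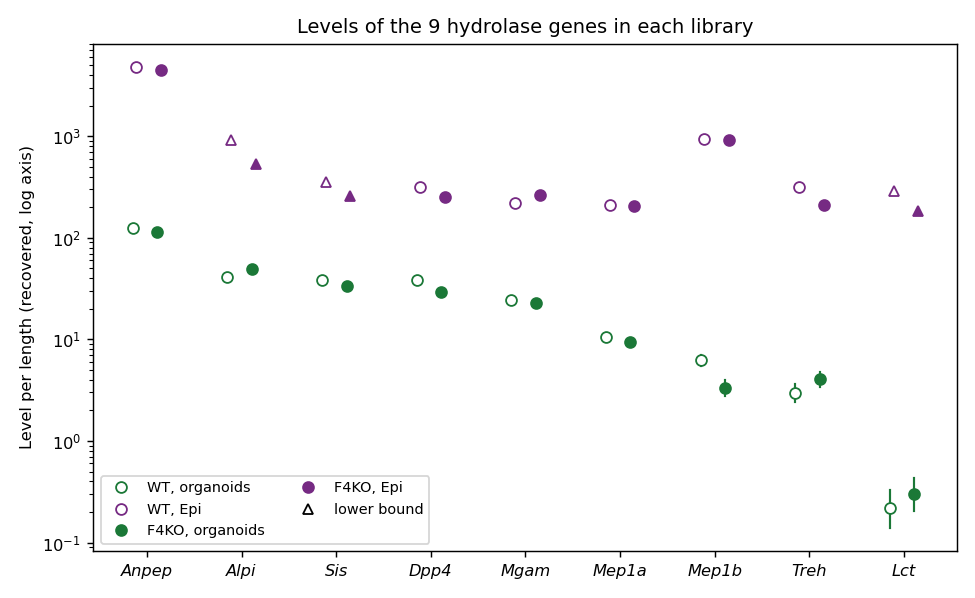
Recovered level per length (vertical axis, logarithmic) of each gene in WT (open) and F4KO (filled) libraries of organoids (green) and Epi (purple), with 95% counting intervals where reads were recovered and triangles for lower bounds. Epi levels lie above organoid levels for all 9 genes, from 8.26-fold for Dpp4 to 1299-fold for Lct in WT at the values drawn.

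By level per length, the order in WT organoids ran from Anpep through Alpi, Sis, Dpp4, Mgam, Mep1a, Mep1b and Treh to Lct. The counting intervals of Alpi and Sis overlapped, as did those of Sis and Dpp4, so these neighbours were not separated by counting error. In WT Epi, Dpp4 at 315 and Treh at 315 were likewise not separated, and Sis, Lct and Alpi cannot be placed exactly because their levels are lower bounds. In WT the Epi level over the organoid level was 8.26 for Dpp4, 9.10 for Mgam, 20.1 for Mep1a, 37.9 for Anpep, 106 for Treh and 153 for Mep1b. At the smallest Epi level that the deposited values allow, it was 9.19 for Sis, 22.2 for Alpi and 1299 for Lct. Counting error in the organoid level is not included, and for Lct that level rests on 23 reads. In F4KO the same ratio was lower than in WT for Treh, at 51.7, and, with the same Epi factor in both genotypes, for Sis at 7.54, Alpi at 10.8 and Lct at 617. It was higher than in WT for Mgam at 11.7, Anpep at 39.5, Dpp4 at 8.63, Mep1a at 21.6 and Mep1b at 279. Organoid and Epi levels come from comparisons normalised separately, so these ratios carry no test. WT organoids and WT Epi also differed in Y-linked reads, with 1 and 374 for Ddx3y. In the WT ratios, sample type and the sex of the source mice therefore cannot be told apart.

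Several members had more than 1 transcript, and the deposited split among them varied between libraries more than the gene did. For Mgam in organoids, 1 predicted transcript had a level of 7.21 in WT and stood at the 0.01 floor in F4KO. Another went from 9.15 to 13.61, from 1772 reads to 2614, while the gene as a whole stayed near 24.3 and 22.7. In Epi the curated Mgam transcript had levels of 28.4 in WT and 90.3 in F4KO, and 1 predicted transcript went from 15.8 to the floor. For Treh in organoids, 1 curated transcript went from 34 reads to 0, and another from 0 to 33. The main Treh transcript went from 62 to 98 reads in organoids and from 10024 to 5861 in Epi. Transcripts of a gene share most of their sequence, so the division of reads among them is uncertain.

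**Figure D3:**
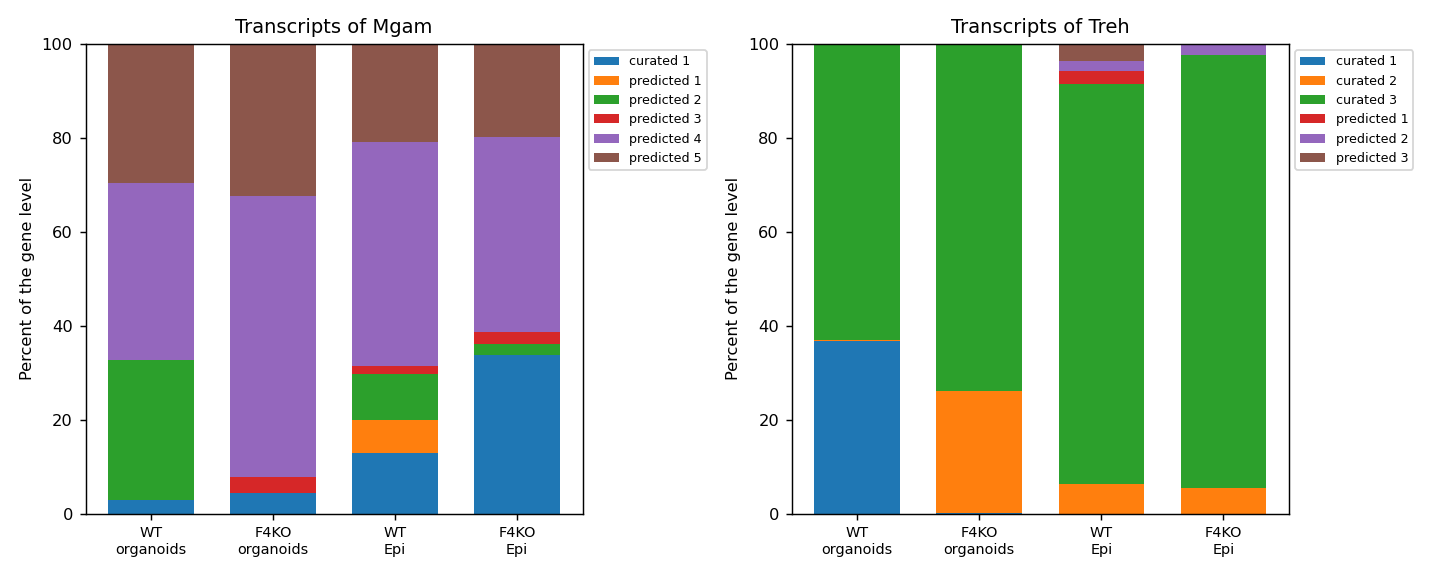
Share of the gene's level (percent, vertical axis) given to each annotated transcript of Mgam and Treh in the 4 libraries, with curated and predicted RefSeq transcripts numbered in each panel. Single transcripts appear in 1 genotype and not in the other, such as the Mgam transcript at 7.21 in WT organoids and 0.01 in F4KO organoids.

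Of 17 other brush border enzymes 14 were measured in Epi, and 5 of these fell, 0 rose and 9 did not pass the rule, with a median of -0.34. The shares over all genes were 3.22% lower and 25.5% higher, and 11.5% lower among genes of level 100 or more, which also stand beside the next counts in Epi. In the authors' deposited table the 5 were Enpp3 at -1.29, Nt5e at -1.27, Mme at -1.09, Enpp7 at -0.70 and Asah2 at -0.70. Nt5e makes adenosine, Mme is the peptidase neprilysin, and Enpp7 and Asah2 break down sphingolipids. Of 12 genes of brush border structure 2 fell and 0 rose in Epi, Ezr, the membrane linker ezrin, at -0.67, and Pls1, an actin bundler, at -0.64 in the authors' deposited table. The Epi median of these 12 was -0.30, close to the -0.32 of the hydrolase genes. In organoids 0 of 14 and 0 of 12 passed the rule in either direction, with medians of 0.21 and 0.03. Over all organoid genes tested 1.18% fell and 0.328% rose.

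Transcription factors of enterocytes were measured at 12 of 12. In Epi 3 fell and 1 rose, with a median of -0.27. The authors' deposited table gave Creb3l3 -0.88, Prdm1 -0.87 and Klf4 -0.60, and Cdx1, a caudal homeobox factor of the crypt and villus, 0.71. The genes Cdx2, Hnf4a, Hnf4g, Gata4 and Gata6 did not pass the rule in either comparison. In organoids Maf fell, at -0.99 in the authors' deposited table, and 0 rose, with a median of 0.06 for the 12. The organoid shares over all genes were 1.18% lower and 0.328% higher. Maf is an enterocyte differentiation factor.

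Markers of epithelial cell types differed from list to list in Epi. Of 13 absorptive enterocyte markers 7 fell and 0 rose in Epi, with a median of -0.67, led in the authors' deposited table by Ada at -1.50, Apoa4 at -1.30, Fabp1 at -1.16, Fabp2 at -1.14 and Slc2a2 at -1.04. Of 10 stem and proliferation markers 7 rose and 0 fell, with a median of 1.57. The 7 of the 10 with a unique read pair summed to 1343 reads in WT and 2589 in F4KO, not scaled by library totals. Above 400 reads a pair was accepted only at a very small p-value, so this sum favours genes that differ. All 6 Paneth markers rose, with a median of 1.18. Over all genes 3.22% fell and 25.5% rose, with a median of 0.34. Goblet markers had 1 riser of 7, Agr2, and a median of 0.41, and enteroendocrine markers 1 of 7, Gcg, and a median of 0.17, so both lists were near the background. The part of these cell types in the lower hydrolase values was not tested.

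Among markers of non-epithelial cells, those of fibroblasts and muscle and the globins passed the rule in Epi. All 5 measured fibroblast and muscle markers of 8 rose, beside 25.5% of all genes. The 8 summed to 30 reads in WT and 216 in F4KO. The measured markers thus reached the minimum of 20 reads mostly through F4KO, so the filter in part fixed this count. Of 5 endothelial and erythroid markers 3 were measured and 2 fell, the globins Hbb-bs and Hba-a1, beside 3.22% of all genes. The 5 summed to 782 reads in WT and 113 in F4KO. Of 11 immune markers 10 were measured and 1, Itgam, rose, with a median of 0.25, which is near the background of 25.5% risen and a median of 0.34. Over 6 of the immune markers reads summed to 347 in WT and 529 in F4KO. Of 6 pancreatic markers 1 was measured, and it did not pass the rule. Their part in the hydrolase values was not tested.

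In organoids fewer members of these lists passed the rule. None of the 13 absorptive enterocyte markers passed the rule, with a median of 0.01. Of 10 stem and proliferation markers 2 fell, Top2a and Ascl2, both at -0.60 in the authors' deposited table, with a median of -0.33. Over all organoid genes tested 1.18% fell and 0.328% rose. None of the 6 Paneth, 7 goblet and 7 enteroendocrine markers passed, with medians of 0.22, 0.25 and 0.32. Without the fold limit, 4 of 6, 3 of 7 and 6 of 7 of these were higher at the FDR limit and 0 were lower, beside 3.89% of all genes higher. In the same way 7 of the 10 stem and proliferation markers were lower and 1 was higher, beside 5.95% of all genes lower. Of 11 immune markers 2 were measured and 6 summed to 236 reads in WT and 154 in F4KO. Among them Ptprc, Cd3g and Gzmb had no fold change, and of the 8 fibroblast and muscle markers, 2 of them measured, Col3a1, Dcn and Myh11 had none. None of the 5 endothelial and erythroid markers reached 20 reads, and the 1 pancreatic marker measured did not pass. Every absorptive, Paneth, goblet and enteroendocrine marker listed was thus measured in these cultures, which the labels call intestinal organoids.

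**Figure D4:**
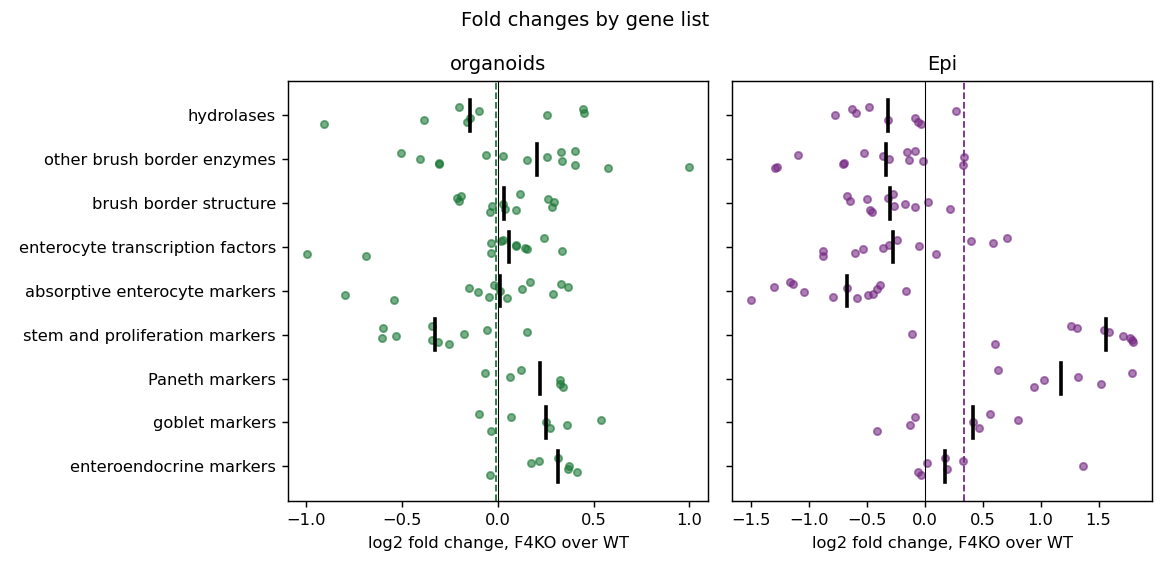
Deposited log2 fold change of F4KO over WT (horizontal axis) for each gene with at least 20 reads, by list, in organoids (left) and Epi (right), with black bars for list medians and dashed lines for the median of all genes. In Epi the hydrolase median is -0.32, on the side of the absorptive enterocyte markers at -0.67, while stem and proliferation markers stand at 1.57.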

How the data were processed

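RNA libraries were made with a SMARTER mRNA-Seq kit, per the labels' protocols. Each group held 1 library, and the 9 genes and the gene lists were chosen with earlier results of these data known. The authors deposited, for each gene and each transcript, a log2 fold change of F4KO over WT (the order read from the file headers), a p-value and an FDR. The deposited organoid FDR is treated as a score, since the authors did not limit it at 1 and 767 genes exceed that. The test behind the p-value is named after the Poisson distribution in the file headers. The submitters' processing notes name GRCm38 and mm10. The aligner, the counting method, the annotation and their versions are not stated in any source used here.

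Read pairs were recovered by matching each deposited p-value to the two-sided Audic-Claverie test, within a relative 7e-06, and levels by writing the antilog of the log2 fold change as a ratio of whole numbers. The matching settings were settled on these data. Of 18 member values, 14 gave a read pair, and 0 did after all p-values were shifted by 0.03%. Of the levels, 15 were exact and 3 were lower bounds. Over all genes, unique pairs had a false rate of 4.05% in organoids and 3.75% in Epi, by the same shift. A unique pair of more than 400 reads was accepted only at a very small p-value. Read sums over gene lists use these pairs alone and are not scaled by library totals. Intervals are exact at 95%, Clopper-Pearson for read ratios and Poisson for levels. The matching over all genes was tested on simulated read numbers below 1000. The search used for the 9 genes, which also draws on transcript p-values and reaches higher read numbers, was not simulated. Genotypes were not tested, for want of replicates. The rule for named genes took all 9 members, Fabp4 and, from each list, at most 5 genes past the fold rule by size of change. Other list genes named as not passing or without a fold change, Akp3 and the Y-linked genes fall outside this rule and were chosen after their values were seen. Python 3.11.15, numpy 2.4.6, scipy 1.17.1 and pandas 2.3.3 were used. Some items of the gene and motif lists are not reported here.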

Additional observations from a re-analysis of the deposited data

Results flagged for a closer look

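Of the 9 genes, 4 had fold changes of opposite sign in the 2 comparisons and 5 had the same sign. The log2 fold change in Epi minus that in organoids was -1.07 for Lct, -1.04 for Treh, -1.03 for Alpi and 0.36 for Mgam. These differences were not tested, since each genotype had 1 library per comparison. In organoids Lct, Treh and Mgam had an FDR above 0.001, so of these genes Alpi alone passed that limit in both comparisons. With each comparison's median subtracted, Mgam stood at -0.090 in organoids and -0.072 in Epi, the same sign. Lct, Treh and Alpi kept opposite signs. The WT and F4KO organoid libraries also differed in Y-linked reads, whereas both Epi libraries held such reads. Lct rested on 23 and 30 reads in organoids, and its organoid interval included a ratio of 1.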

How the results depend on the processing

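No paired analysis was possible because each group held 1 library and the groups share no replicate that could be set side by side. The number of the 9 genes past the rule in organoids went from 1 to 0 at 2-fold and to 2 at 1.2-fold. In Epi it went from 3 to 0 at 2-fold, to 6 at 1.2-fold, to 5 after the median of all genes was subtracted and to 2 with the main transcript in place of the gene. The Epi median of the 9 went from -0.32 to -0.66 with that subtraction. The Epi median of genes at a level of 100 or more, -0.06, was not used for a subtraction. Such a subtraction would put Lct and Treh short of the rule and leave Alpi past it. Leaving out each gene in turn moved the Epi median between -0.40 and -0.20, the latter without Sis, Lct, Treh or Alpi, and the organoid median between -0.15 and -0.12. Mgam turned to 0.57 in organoids by its main transcript, and to -0.072 in Epi with the median subtracted. Treh in Epi went to -0.48 by its main transcript, short of the rule, while Sis at -0.83 and Dpp4 at -0.66 came to pass it with the median subtracted. Of the counts and medians, 39 stayed within 1.5 times the main count or the spread set for medians, and 10 moved. Not all of the 39 were equal to the main value. Some of the 39 could not move. Another background leaves the count of members unchanged, and all 9 members had at least 20 reads. Of the values of single genes, 45 kept their direction and their side of the rule. Backgrounds at a level of 100 or more, and the organoid median without Lct and Treh, were added after the data were seen. Depth limits Lct in organoids, and 1 library per genotype limits every comparison. The cause of these shifts was not tested beyond what each setting removes.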
